A study of Mus musculus with 12 samples.

Results

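The 10 long noncoding RNAs Malat1, Neat1, Kcnq1ot1, Meg3, H19, Gas5, Snhg1, Snhg12, Norad and Pvt1 were followed in tumors of CT-26 cells, a mouse colon carcinoma cell line. They were chosen by name, with earlier results of these data known, and matched to the Ensembl identifiers of the deposited files. All 10 of them were found among the 30630 genes listed for each tumor. Sequencing covered 6 tumors of control mice and 6 tumors of swimming mice, and each group had 10 mice. All animals were male BALB/c mice, 4 to 6 weeks old when bought, and all carried CT-26 cells given under the skin of the right flank in Matrigel, and no deletion or drug was named for either group. Sessions of up to 30 min were held 2 times daily, 6 days per week, over 3 weeks, while control mice carried tumors of the same cells without this training. CT-26 is 1 cell line, and a tumor taken whole also holds cells of the host, so that fewer cells of a type and less RNA per cell cannot be told apart in any level given here.

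Long noncoding RNAs are transcripts that are not translated into a known protein. Malat1 lies in nuclear speckles, Neat1 builds the paraspeckles, and Kcnq1ot1 and Meg3 are imprinted RNAs that also stay in the nucleus. Gas5, Snhg1 and Snhg12 are host genes of small nucleolar RNAs (snoRNAs): their introns are cut into snoRNAs that guide the modification of ribosomal RNA, and the spliced exons leave the nucleus, are read by ribosomes for a short stretch and are then degraded. H19 is an imprinted RNA of embryonic tissues and muscle, Norad is a cytoplasmic RNA that binds Pumilio proteins, and Pvt1 is the neighbor of the Myc gene. The question posed here was whether swimming was accompanied by a different level of any of these RNAs, and whether the nuclear RNAs and the snoRNA host genes behaved alike.

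Some sequence features of these RNAs are shown first, because the results are ordered by these classes. The 3′ ends of Malat1 and of the long form of Neat1 carry no ordinary poly(A) tail and are held by a stretch of A residues that folds back on U-rich sequence. Ribosomal RNA was removed from total RNA for these libraries, and poly(A) selection was not named. In the GENCODE M21 transcripts both RNAs hold the letters AAAAAGCAAAA, shown in capitals, which occur in the longest transcript of 304 of 55450 genes (0.548%). The tract of Malat1 is at base 6681 of 6983 (chr19:5795978-5796007, GRCm38, minus strand), and that of Neat1 forms the last bases of its 20771 bases (chr19:5824708-5824733, minus strand).
Malat1 tract: ctagctttaaaaaaaAAAAAGCAAAAgacg
Neat1 tract: acgaacgtgagcaggAAAAAGCAAAA

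Transcripts of many snoRNA host genes begin with a C followed by a run of C and T letters, which ties their translation to growth signals. The RefSeq promoter table for GRCm38.p6 held 6 of the 10 genes. The first 10 bases printed below precede the annotated start, and capitals mark the run of C and T letters that begins at the start. One of the 2 annotated starts of Gas5 (chr1:161035156-161035185, plus strand) has a C with at least 4 more C or T letters, a pattern present at 823 of 32851 starts (2.51%). The starts of Snhg1 (chr19:8723477-8723506, plus strand) and Snhg12 (chr4:132308668-132308697, plus strand) miss it as annotated, since the run of Snhg1 has 3 letters and that of Snhg12, with 6 letters, begins with T. Malat1 (chr19:5802653-5802682, minus strand) is shown for comparison, with a run of 1 letter. Kcnq1ot1 and both starts of Meg3 begin with a G or an A.
Gas5 start: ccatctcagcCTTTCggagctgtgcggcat
Snhg1 start: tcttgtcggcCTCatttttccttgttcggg
Snhg12 start: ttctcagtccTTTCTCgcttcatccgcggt
Malat1 start: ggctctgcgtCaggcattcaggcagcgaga

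In the promoter windows of 300 bases (250 before and 50 after the start), searched on both strands, TATAAA was found for Meg3 and Snhg1 and is present in 13.6% of all windows. CCAAT was found for Kcnq1ot1 and Meg3 (37.4% of all windows), and CACGTG for none of the 6 genes (7.15% of all windows).

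Levels of the 10 RNAs were spread widely, although the list was drawn up as one of abundant RNAs. Values are FPKM (fragments per kilobase of gene, scaled to sequencing depth), so they are already divided by the length of each gene and can be compared between genes. Malat1 was the highest with a mean of 194 FPKM over the 12 tumors, the fourth of 4835 listed long noncoding RNA genes and number 291 among all genes. Norad (48.0 FPKM), Gas5 (31.8), Neat1 (25.2), Snhg1 (21.8) and Snhg12 (17.1) came next and ranked between 16 and 33 among the long noncoding RNAs. H19 (2.18 FPKM) and Pvt1 (1.37) ranked 236 and 384. Meg3 (0.460) and Kcnq1ot1 (0.385) ranked 935 and 1042 and were below 1 FPKM, a mean reached by 516 of the long noncoding RNA genes, so that the label abundant did not hold for Meg3 and Kcnq1ot1 in these tumors. Down this order, the ranges of Malat1 and Norad did not overlap over the 12 tumors, nor did those of Snhg12 and H19. All other neighbors in the order had overlapping ranges. Long noncoding RNA genes were counted here by the gene types of GENCODE M21, such as lincRNA, antisense and processed transcript. These types also took in Cct6a, a chaperonin subunit gene, at rank 7, so the ranks depend on that annotation.

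The spread between tumors differed as much as the level. Norad was the steadiest, with a coefficient of variation of 6.63% and a highest value 1.27 times the lowest. Malat1 varied by 17.6%, Neat1 by 18.2% and Gas5 by 20.6%, about 2 times the median of 9.15%, 9.23% and 9.06% found for genes within 2-fold of their levels. Snhg1 varied by 13.3% and Snhg12 by 23.4%, against medians of 9.44% and 9.70%. The imprinted RNAs H19 and Meg3 varied most, by 87.8% and 107%, where genes of like level had medians of 18.7% and 42.1%. Kcnq1ot1 varied by 22.0%, below the median of 45.5% for genes of its level, and Pvt1 by 25.1%, close to its median of 25.0%.

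**Figure D1:**
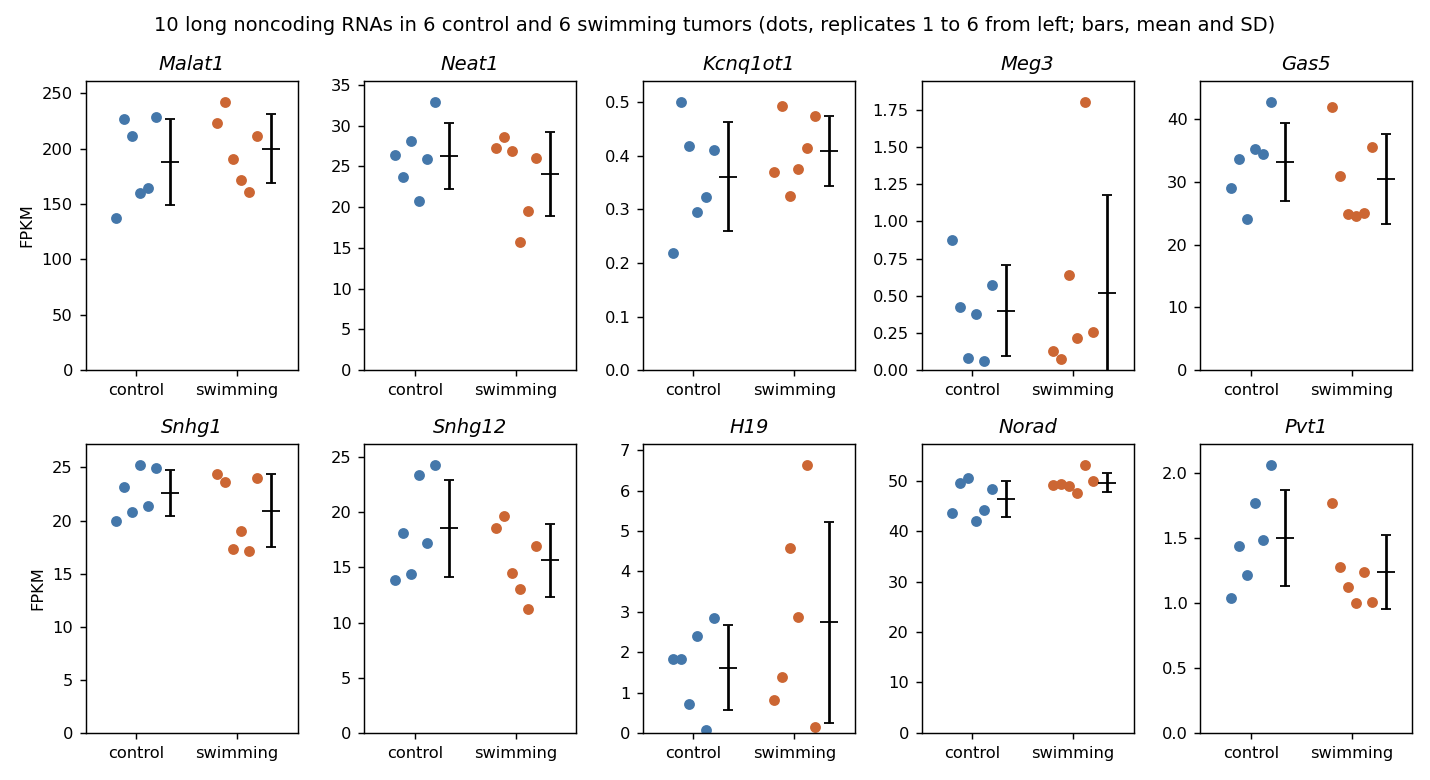
FPKM of each RNA in every tumor, with control tumors in blue and swimming tumors in orange, replicates 1 to 6 from left to right, and the mean with its SD as a black bar; each panel has its own scale from 0. The 2 groups overlap in all 10 panels, Norad is nearly level, and H19 and Meg3 reach their highest values, 6.63 and 1.80 FPKM, in swimming tumor 5.

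None of the 10 RNAs differed between the groups past the threshold. On the scale of log2(FPKM + 1), 5 of them were higher and 5 were lower on average in the swimming group, with a median log2 fold change of -0.032. In limma's moderated test, 0 of 10 had an unadjusted p below 0.05, beside 1058 of 19018 genes tested (5.56%), and 0 had an adjusted p below 0.05, beside 0 (0%) of all genes tested. The smallest adjusted p of any gene was 0.204. The values of the 2 groups overlapped for all 10 RNAs, and groups that do not overlap were found for 0.147% of all genes tested. The median size of the log2 fold change was 0.12 for these RNAs and 0.064 for all genes tested. Groups of 6 tumors from different mice were compared, and the smallest p that the exact permutation test of a single gene could reach was 0.00216.

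Malat1 (ENSMUSG00000092341, chr19:5795690-5802672, minus strand, a lincRNA with 4 annotated transcripts) is the most abundant RNA of the nuclear speckles, where splicing factors are stored. It was at 137, 227, 211, 160.2, 164 and 229 FPKM in control tumors 1 to 6, and at 223, 242, 190.4, 171, 161 and 211 FPKM in swimming tumors 1 to 6. High and low tumors occurred in both groups. Control tumors had a mean of 188 ± 39.0 FPKM and swimming tumors one of 199.8 ± 31.0 FPKM (SD, n = 6 each). The log2 fold change was 0.10 (SE 0.14, 95% interval -0.20 to 0.40, adjusted p = 0.957 in limma's test, two-sided exact permutation p = 0.522). It was between 0.013 without control tumor 1 and 0.16 without control tumor 6 when single tumors were left out, and 8 of the 12 such values differed from it by over 1.5 times. Of the genes for nuclear speckle and splicing proteins, 0 of 9 had an unadjusted p below 0.05, and their median log2 fold change was 0.03. Among them Srsf1, Srsf2 and Srsf3, which encode splicing factors, had log2 fold changes of 0.05, 0.03 and 0.01.

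Neat1 (ENSMUSG00000092274, chr19:5824708-5845478, minus strand, a lincRNA with 4 transcripts) lies next to Malat1 and is the scaffold of paraspeckles, nuclear bodies that hold back RNAs and proteins. It was at 26.4, 23.7, 28.1, 20.7, 25.9 and 32.8 FPKM in control tumors 1 to 6, and at 27.3, 28.6, 26.9, 15.8, 19.6 and 26.1 FPKM in swimming tumors 1 to 6. Swimming tumors 4 and 5 were the lowest of all, and the other four swimming tumors lay within the control range. The means were 26.3 ± 4.09 and 24.0 ± 5.14 FPKM (SD, n = 6 each), with a log2 fold change of -0.14 (SE 0.14, 95% interval -0.45 to 0.17, adjusted p = 0.935 in limma's test). It was -0.030 without swimming tumor 4, -0.089 without swimming tumor 5 and -0.075 without control tumor 6. A small annotated RNA of 110 bases inside Neat1, Gm27505, was listed at a mean of 302 FPKM, from 171 FPKM in swimming tumor 4 to 398 FPKM in control tumor 6. It lies on the same strand and its exon overlaps that of Neat1, so that reads could be divided between the 2 genes and the level of Neat1 is uncertain. The genes for paraspeckle proteins had 0 of 11 at an unadjusted p below 0.05 and a median log2 fold change of 0.02. Sfpq and Nono, which encode the core pair of proteins, had log2 fold changes of 0.11 and -0.02, and Pspc1, their relative, had -0.29.

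Kcnq1ot1 (ENSMUSG00000101609, chr7:143203458-143296549, minus strand, 1 transcript) is transcribed from the paternal chromosome against Kcnq1 and silences neighboring genes in cis. It was between 0.219 and 0.4996 FPKM in the control group, with a median of 0.367, and between 0.325 and 0.493 FPKM in the swimming group, with a median of 0.395. The lowest tumor, control 1, and the highest, control 2, were both controls. Between the groups the log2 fold change was 0.05 (SE 0.06, adjusted p = 0.943 in limma's test). With pseudocounts of 0.1 and 0.01 it was 0.16 and 0.21, and it was 0.021 without control tumor 1 and 0.080 without control tumor 2. Exons of Kcnq1 overlap Kcnq1ot1 on the opposite strand, and the library kit named in the methods does not mark strand, so that reads of the 2 RNAs cannot be told apart there. Kcnq1 itself was at 0.452 ± 0.123 and 0.362 ± 0.0925 FPKM (SD, n = 6 each), lower in the swimming group by 0.09 on the log2 scale (adjusted p = 0.917 in limma's test). Cdkn1c, a growth inhibitor that Kcnq1ot1 is known to silence, had a log2 fold change of 0.15.

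Meg3 (ENSMUSG00000021268, chr12:109541001-109571726, plus strand, 11 transcripts) is made from the maternal chromosome in the Dlk1 region, a stretch of imprinted genes. It was at 0.874, 0.427, 0.0841, 0.377, 0.0640 and 0.573 FPKM in control tumors 1 to 6. In swimming tumors 1 to 6 it was at 0.128, 0.0770, 0.643, 0.214, 1.80 and 0.257 FPKM. Swimming tumor 5 stood far above the others, and 9 of 12 tumors reached 0.1 FPKM. The log2 fold change was 0.06 (SE 0.22, 95% interval -0.42 to 0.54, adjusted p = 0.985 in limma's test), and it was -0.14 without swimming tumor 5, so its direction rests on single tumors.

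The 3 snoRNA host genes were each lower on average in the swimming group, by less than the spread between tumors. Gas5 (ENSMUSG00000053332, chr1:161034422-161038539, plus strand, 25 transcripts) is named for its accumulation in cells that stop growing and holds snoRNA genes at 9 places. It was at 28.9, 33.7, 24.1, 35.3, 34.4 and 42.6 FPKM in control tumors 1 to 6, and at 41.9, 30.9, 24.8, 24.5, 25.1 and 35.4 FPKM in swimming tumors 1 to 6. Swimming tumors 3, 4 and 5 lay near the lowest control tumor, and swimming tumor 1 lay near the highest. Gas5 had a log2 fold change of -0.13 (SE 0.15, 95% interval -0.45 to 0.20, adjusted p = 0.943 in limma's test, two-sided exact permutation p = 0.465). It ranged from -0.22 without swimming tumor 1 to -0.054 without control tumor 6, and was also moved by over 1.5 times without control tumor 3 (-0.21) and without swimming tumor 3, 4 or 5 (-0.077, -0.074 and -0.080).

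Snhg1 (ENSMUSG00000108414, chr19:8723475-8726443, plus strand, 18 transcripts) holds snoRNA genes at 8 places. It was at 19.96, 23.1, 20.9, 25.2, 21.4 and 24.9 FPKM in control tumors 1 to 6, and at 24.4, 23.7, 17.4, 19.01, 17.2 and 24.0 FPKM in swimming tumors 1 to 6. Again swimming tumors 3, 4 and 5 were low, below every control tumor, and the other swimming tumors were within the control range. Snhg1 had a log2 fold change of -0.12 (SE 0.10, 95% interval -0.33 to 0.10, adjusted p = 0.930 in limma's test), and one of -0.067 without swimming tumor 3 and -0.064 without swimming tumor 5.

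Snhg12 (ENSMUSG00000086290, chr4:132308623-132311024, plus strand, 10 transcripts) holds snoRNA genes at 4 places. It was at 13.9, 18.2, 14.4, 23.4, 17.2 and 24.3 FPKM in control tumors 1 to 6, and at 18.6, 19.6, 14.5, 13.03, 11.2 and 16.9 FPKM in swimming tumors 1 to 6. The 2 lowest values were those of swimming tumors 5 and 4, and the 2 highest those of control tumors 6 and 4. The log2 fold change was -0.23 (SE 0.16, 95% interval -0.57 to 0.12, adjusted p = 0.914 in limma's test), and it was -0.14 without swimming tumor 5 and -0.15 without control tumor 6. Snora16a and Snora61, which guide pseudouridylation and lie inside Snhg12, were listed at 3.91 to 8.13 and at 5.18 to 10.4 FPKM. Another entry of Snora16a at nearly the same place was listed at only 0.102 to 0.219 FPKM. Snord22 inside Snhg1 and Snora44 inside Snhg12 were listed at values that followed sequencing depth (lowest in control tumor 1, the deepest library, and highest in control tumor 2, the shallowest), and these give no level. Snora61 was lowest and highest in the same 2 tumors, so its level is uncertain too. Exons of the host genes overlap several snoRNA genes, so the division of reads between host and snoRNA is uncertain.

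Other snoRNA host genes were compared in the same way. Of 18 named, 15 were listed and 13 were tested, of which 12 were lower and 1 was higher on average in the swimming group, with a median log2 fold change of -0.10 beside 0.00 for all genes tested. Over all genes tested, 9186 of 19018 were lower. Mir17hg, among the 12 that were lower, is a host gene of miRNAs and not of snoRNAs. Of these 13, 1 had an unadjusted p below 0.05 (all genes, 5.56%), and 0 had an adjusted p below 0.05. That gene was Snhg5, with means of 12.8 ± 2.11 and 10.7 ± 1.40 FPKM in control and swimming tumors (SD, n = 6 each), with a log2 fold change of -0.23 (adjusted p = 0.889 in limma's test). The host gene with the higher mean in the swimming group was Snhg9, at 0.968 and 1.32 FPKM. Gas5, Snhg1 and Snhg12 varied together between tumors, as described further on, so directions of single host genes may not be independent of each other. Of 8 genes for snoRNP proteins, which form particles with the snoRNAs, 7 were lower and 1 was higher, with a median of -0.05, and 0 had an unadjusted p below 0.05. Fbl, the methylase of these particles, had a log2 fold change of -0.03. Since spliced RNAs of host genes are degraded by nonsense-mediated decay, factors of that pathway were read as well: 4 of 10 were higher and 6 were lower, with a median of -0.01, and Upf1, its central helicase, had 0.06.

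**Figure D2:**
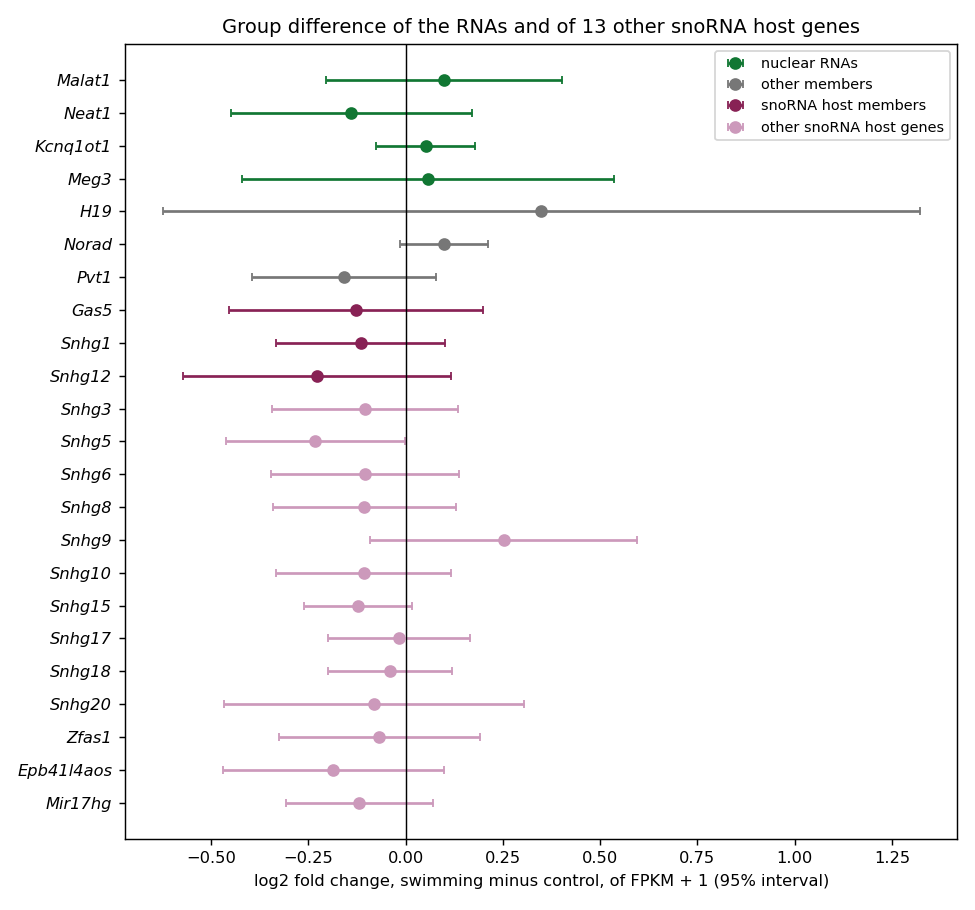
Log2 fold change of FPKM + 1 between swimming and control tumors (n = 6 each), with 95% intervals from limma, for the 10 RNAs and 13 other host genes. Of these 13, Mir17hg is drawn with the snoRNA host genes but hosts miRNAs. The intervals of all 10 RNAs include 0; all 3 host genes among them and 12 of the 13 others lie left of 0.

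The nuclear RNAs and the snoRNA host genes were then set side by side. In each tumor, the mean log2(FPKM + 1) of Gas5, Snhg1 and Snhg12 was subtracted from that of Malat1, Neat1, Kcnq1ot1 and Meg3. The mean of the 4 nuclear RNAs is lowered by Meg3 and Kcnq1ot1, at means of 0.460 and 0.385 FPKM. Malat1, at 137 FPKM or more, was above all 3 host genes in every tumor. Control tumors had a mean difference of -1.33 ± 0.23 and swimming tumors one of -1.16 ± 0.28 (SD, n = 6 each). It ranged from -1.68 in control tumor 4 to -1.05 in control tumor 3, and from -1.48 in swimming tumor 1 to -0.74 in swimming tumor 5, so the groups overlapped over most of their range. The shift of 0.17 between the groups was smaller than either SD. Most of it came from the host genes, whose means were 4.63 in control and 4.47 in swimming tumors, while the nuclear RNAs had means of 3.30 and 3.32. The nuclear RNAs did not go one way, however. Log2 fold changes were 0.10 for Malat1, 0.05 for Kcnq1ot1 and 0.06 for Meg3, but -0.14 for Neat1. Neat1 was thus lower by about as much as Gas5 (-0.13) and Snhg1 (-0.12), while Snhg12 had -0.23. The level nuclear mean therefore hides opposite directions. No test was made of this score, since the genes in it were chosen with results known. Without swimming tumor 5 the shift was 0.09 and without swimming tumor 1 it was 0.24.

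**Figure D3:**
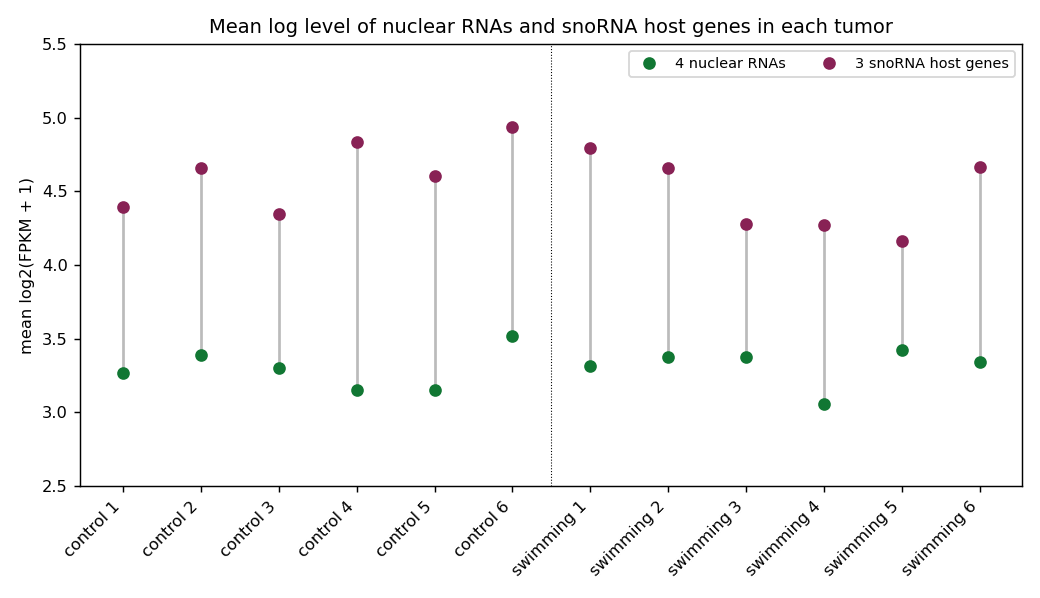
Mean log2(FPKM + 1) of the 4 nuclear RNAs (green) and of the 3 snoRNA host genes (purple) in each tumor, joined by a line; the axis does not begin at 0. The mean of the host genes is above that of the nuclear RNAs in all 12 tumors, with the shortest distance (0.74) in swimming tumor 5 and the longest (1.68) in control tumor 4. The nuclear mean is lowered by Meg3 and Kcnq1ot1, and Malat1 alone is above each host gene.

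Norad (ENSMUSG00000102869, named 2900097C17Rik in GENCODE M21, chr2:156388065-156392979, minus strand, 2 transcripts) is a conserved RNA that binds Pumilio proteins. It was found by its RefSeq synonym and position. Its annotated transcript of 4915 bases holds the Pumilio motif TGTANATA, read on the strand of the RNA, at 11 positions or 2.24 per kb, beside 0.116 per kb in the longest transcripts of all 55450 genes. As many or more were found in 7 genes (0.0126%), Norad and Kcnq1ot1 included, the latter with 18 in 93092 bases. Among the other RNAs described here, Neat1 held 4, Pvt1 2, Gas5 1, and Malat1, Meg3, Snhg1, Snhg12 and H19 held 0. Examples are the second motif of Norad (chr2:156391816-156391843, minus strand), the eighth (chr2:156390521-156390548) and the tenth (chr2:156390209-156390236), with capitals for the motif.
Norad motif 2: gtaaacatgcTGTAAATAcctttttgtt
Norad motif 8: tttgctatgcTGTATATAttgtacatac
Norad motif 10: agtactactaTGTATATAggggacaaat

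Norad was at 43.7, 49.5, 50.5, 41.9, 44.3 and 48.3 FPKM in control tumors 1 to 6, and at 49.0, 49.3, 48.9, 47.5, 53.1 and 49.9 FPKM in swimming tumors 1 to 6. All 6 swimming tumors were above the median of the control tumors, while 3 of the 6 control tumors lay within the range of the swimming group. The means were 46.4 ± 3.53 and 49.6 ± 1.86 FPKM (SD, n = 6 each). The log2 fold change of 0.10 (SE 0.05, 95% interval -0.01 to 0.21) had the smallest p of the 10 RNAs (limma's unadjusted p = 0.0812 and adjusted p = 0.889, two-sided exact permutation p = 0.0931). Limma's unadjusted p was 0.0495 without control tumor 2 and 0.0342 without control tumor 3, and the adjusted p was 0.696 or more under all 21 alternatives. Without control tumor 1 and swimming tumor 5 together, the tumors highest in adipocyte markers in their groups, its log2 fold change was 0.063.

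Pvt1 (ENSMUSG00000097039, chr15:62037986-62378096, plus strand, 10 transcripts) lies downstream of Myc, the growth-promoting transcription factor, and is often amplified with it. It was at 1.04, 1.44, 1.22, 1.77, 1.49 and 2.06 FPKM in control tumors 1 to 6, and at 1.77, 1.28, 1.12, 0.998, 1.24 and 1.01 FPKM in swimming tumors 1 to 6. Only swimming tumor 1 was above the control median. The means were 1.504 ± 0.370 and 1.24 ± 0.285 FPKM (SD, n = 6 each), with a log2 fold change of -0.16 (SE 0.11, 95% interval -0.39 to 0.08, adjusted p = 0.911 in limma's test). With pseudocounts of 0.1 and 0.01 it was -0.26 and -0.27, and without control tumor 6 it was -0.098. Myc had means of 33.7 ± 5.82 and 26.1 ± 3.82 FPKM in control and swimming tumors (SD, n = 6 each), a log2 fold change of -0.35 (limma's unadjusted p = 0.0104 and adjusted p = 0.889). Across the 12 tumors Pvt1 and Myc had r = 0.34 and rho = 0.42 (permutation p = 0.270 and 0.177, adjusted p = 0.311 and 0.221), with r = 0.11 without control tumors 4 and 6.

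H19 (ENSMUSG00000000031, chr7:142575529-142578143, minus strand, 7 transcripts) is made from the maternal chromosome beside Igf2, is strong in embryonic tissues and stays on in skeletal muscle. Its RNA is also the precursor of miR-675. The mature forms lie at chr7:142577112-142577133 and chr7:142577078-142577099 (minus strand) and are shown, from RefSeq, with their seeds (bases 2 to 8) in capitals. The seeds differ from each other. The levels of these miRNAs were not analysed here.
miR-675-5p: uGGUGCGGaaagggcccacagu
miR-675-3p: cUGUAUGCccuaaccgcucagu

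H19 was at 1.84, 1.83, 0.708, 2.39, 0.0611 and 2.86 FPKM in control tumors 1 to 6, and at 0.809, 1.39, 4.57, 2.87, 6.63 and 0.139 FPKM in swimming tumors 1 to 6. The highest value, in swimming tumor 5, was 109 times the lowest, in control tumor 5, and each group held a tumor with nearly none. The means were 1.61 ± 1.05 and 2.74 ± 2.48 FPKM (SD, n = 6 each), and the log2 fold change was 0.35 (SE 0.45, 95% interval -0.62 to 1.32, adjusted p = 0.948 in limma's test). Without swimming tumors 3, 5 and 6 in turn it was 0.17, 0.084 and 0.63, without control tumor 5 it was 0.11, and with a pseudocount of 0.01 it was 0.61. Its neighbor Igf2 was listed at 0 in 6 of the 12 tumors and reached 0.332 FPKM in swimming tumor 5.

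H19 followed the skeletal muscle genes of the tumors. The summed level of 6 muscle markers (Acta1, Ckm, Myh4, Mylpf, Tnnt3 and Tnnc2) was 1.66 to 187 FPKM in control tumors and 1.14 to 271 FPKM in swimming tumors, and 0 of the 6 had an unadjusted p below 0.05 between the groups. Across the 12 tumors H19 and this sum had r = 0.96 and rho = 0.96 (permutation p = 1e-05, the smallest they can give, and 3e-05, adjusted p = 7.5e-05 and 0.00045 over 15 pairs). Without control tumor 5 and swimming tumor 5, r was 0.95 (permutation p = 6e-05). It was 0.98 among control tumors and 0.96 among swimming tumors. Tumors with the lowest muscle sum, swimming 6 (1.14 FPKM) and control 5 (1.66 FPKM), had the lowest H19, and swimming tumor 5, with the highest sum of 271 FPKM, had the highest. Among the 12788 genes with a mean of at least 1 FPKM, those most like H19 were Tpm2 (r = 0.96), Tnnc2 (r = 0.96) and Lasp1 (r = 0.96), of which Tpm2 and Tnnc2 encode thin filament proteins of muscle. The 15 pairs were chosen with earlier results of these data known, so the permutation p of every pair in this text is given as a description. The part of muscle tissue in the level of H19 was not tested.

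Meg3 went with its neighbor Rian and with the fibroblast genes. Meg3 and Rian, another maternal noncoding RNA of the same region, had r = 0.96 and rho = 0.91 (permutation p = 1e-05, the smallest they can give, and 0.00013, adjusted p = 7.5e-05 and 0.0009), with r = 0.90 without control tumor 1 and swimming tumor 5. The summed level of 6 fibroblast markers (Col1a1, Col1a2, Col3a1, Dcn, Lum and Pdgfra) was 186 to 789 FPKM in control tumors and 221 to 757 FPKM in swimming tumors. With this sum Meg3 had r = 0.88 and rho = 0.88 (permutation p = 0.00014 and 0.00034, adjusted p = 0.000525 and 0.00127), with r = 0.78 without the same pair of tumors and r = 0.87 and 0.97 within the control and swimming groups. With the muscle sum Meg3 had r = 0.68 and rho = 0.73 (permutation p = 0.0147 and 0.00989, adjusted p = 0.0246 and 0.0165), and r = 0.72 without the same pair of tumors. H19 had a relation to the fibroblast sum as well (r = 0.67 and rho = 0.66, permutation p = 0.0176 and 0.0221, adjusted p = 0.0265 and 0.0332). It had r = 0.40 without control tumor 5 and swimming tumor 5 and rests on those tumors. H19 and Meg3 had r = 0.76 and rho = 0.75 (permutation p = 0.00269 and 0.00687, adjusted p = 0.00504 and 0.0147). Within the control and swimming groups r was 0.78 and 0.76. Without the same 2 tumors it was 0.56 (permutation p = 0.0929), so that the relation of H19 and Meg3 was weaker without them. Control tumor 1, second in Meg3, also had the highest sum of adipocyte markers (119 FPKM, beside 0.269 to 21.3 FPKM in the other tumors). The part of fibroblasts or fat in these levels was not tested.

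**Figure D4:**
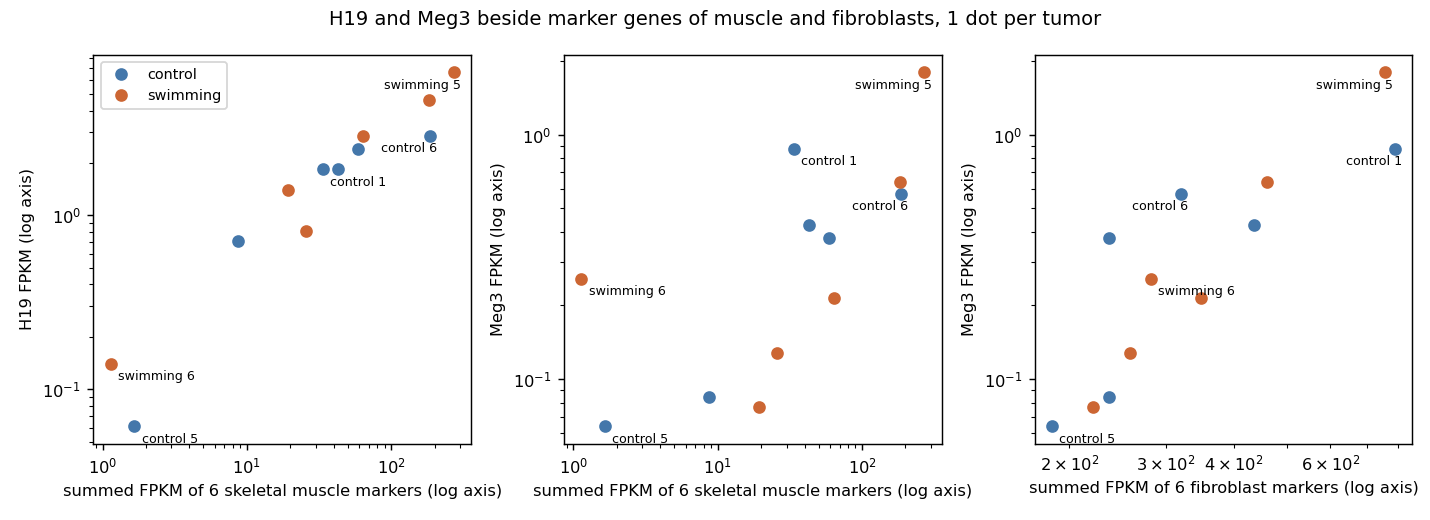
H19 against the summed FPKM of 6 skeletal muscle markers (left), and Meg3 against the same sum (middle) and against 6 fibroblast markers (right), on log axes, with 1 dot per tumor. H19 climbs with the muscle sum from control tumor 5 and swimming tumor 6 to swimming tumor 5, and in the middle panel swimming tumor 6 and control tumor 1 stand off the trend of Meg3.

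The snoRNA host genes varied together from tumor to tumor. Snhg1 and Snhg12, on different chromosomes, had r = 0.89 and rho = 0.90 (permutation p = 0.00013 and 0.00018, adjusted p = 0.000525 and 0.0009), and r = 0.91 without swimming tumors 3 and 5. Gas5 and Snhg1 had r = 0.85 and rho = 0.83 (permutation p = 0.00079 and 0.00115, adjusted p = 0.00237 and 0.00345), and Gas5 and Snhg12 had r = 0.82 and rho = 0.76 (permutation p = 0.00118 and 0.00574, adjusted p = 0.00295 and 0.0143). Without control tumors 3 and 6 these were r = 0.89 and 0.77, and within the groups all 3 pairs lay between r = 0.77 and 0.97. The sum of the 3 host genes was highest in control tumor 6 (91.8 FPKM) and lowest in swimming tumor 5 (53.5 FPKM), the tumor with the highest H19 and Meg3. The genes most like Snhg12 were Ern1 (r = 0.94), a sensor of unfolded proteins in the endoplasmic reticulum, Vezt (0.94) and Slc25a37 (0.94), an iron carrier of mitochondria. Those most like Snhg1 were Slc25a37 (0.96), Fam110c (0.91) and Ern1 (0.91), and those most like Gas5 were the pseudogene Gm9791 (0.92), Tenm4 (0.90) and Hspa5 (0.89), a chaperone of the endoplasmic reticulum. These genes were ranked over 12788 genes and 12 tumors, and the ranking is a description.

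The nuclear RNAs were less alike. Malat1 and its neighbor Neat1 had r = 0.51 and rho = 0.62 (permutation p = 0.0901 and 0.0384, adjusted p = 0.113 and 0.0523), with r = 0.67 without control tumors 1 and 4. Neat1 and Kcnq1ot1 had r = 0.11 and rho = 0.16 (permutation p = 0.742 and 0.617, adjusted p = 0.742 and 0.661), with r = 0.25 without swimming tumors 4 and 5. Malat1 and Kcnq1ot1 had r = 0.80 and rho = 0.73 (permutation p = 0.00163 and 0.00850, adjusted p = 0.00349 and 0.0159). Without control tumors 1 and 4 this r was 0.61 (permutation p = 0.0637), and it was 0.96 within the control group and 0.45 within the swimming group. The relation of Malat1 and Kcnq1ot1 was thus weaker without those tumors and rests on them in part. Kcnq1ot1 and Cdkn1c had r = -0.31 and rho = -0.13 (permutation p = 0.328 and 0.685, adjusted p = 0.351 and 0.685), with r = -0.28 without control tumors 1 and 4. H19 and Igf2 had r = 0.56 and rho = 0.37 (permutation p = 0.0388 and 0.230, adjusted p = 0.0530 and 0.265), with r = 0.28 without control tumor 5 and swimming tumor 5. The genes most like Malat1 were Serac1 (r = 0.92), Zbtb26 (0.90) and AW549877 (0.89), and those most like Neat1 after Gm27505 inside it (0.97) were Samd4b (0.93) and Csnk1e (0.89). For Norad they were Scd3 (0.94), Zfp772 (0.93) and Tmem67 (0.93), and for Pvt1 they were Epg5 (0.91), Tcam1 (0.90) and Stt3a (0.90).

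**Figure D5:**
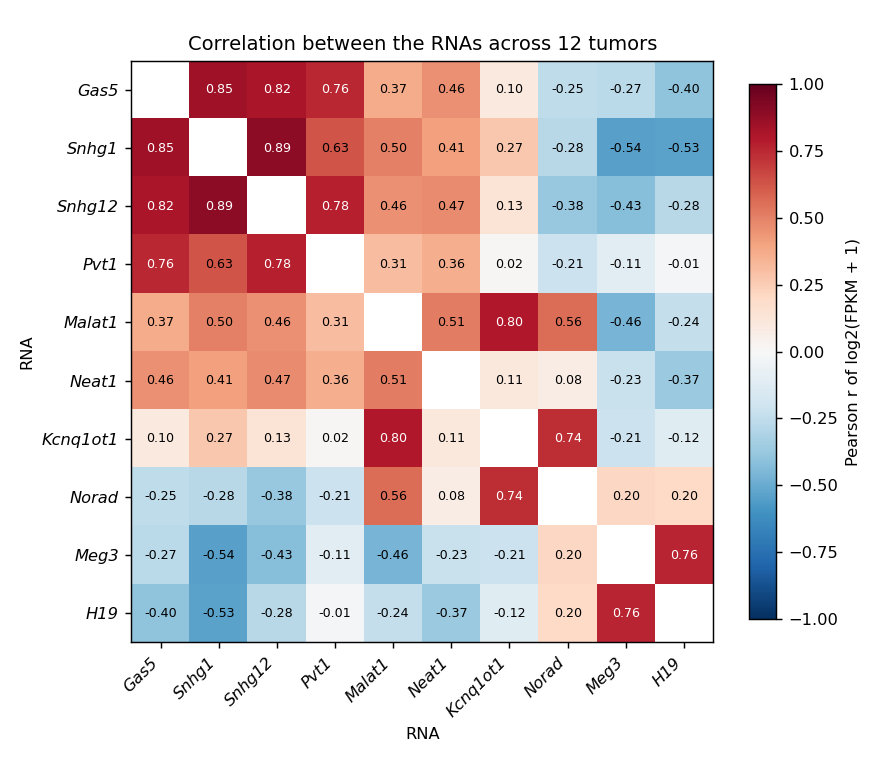
Pearson r of log2(FPKM + 1) between each pair of the 10 RNAs over 12 tumors, from blue (-1) to red (1). Gas5, Snhg1, Snhg12 and Pvt1 form a block with r between 0.63 and 0.89. Malat1 and Norad have r = 0.80 and 0.74 with Kcnq1ot1, and that of Malat1 was weaker without control tumors 1 and 4. H19 and Meg3 are linked to each other, and both are below 0 with every other RNA except Norad (r = 0.20 each).

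Other noncoding RNAs and the makeup of the tumors were read for context. Of 10 other long noncoding RNAs tested, 1 had an unadjusted p below 0.05 (all genes, 5.56%). Jpx, an activator of Xist, had means of 0.731 ± 0.0907 and 0.574 ± 0.0914 FPKM in control and swimming tumors (SD, n = 6 each, adjusted p = 0.889 in limma's test). Of the imprinted neighbors of H19, Meg3 and Kcnq1ot1 and of other imprinted regions, 7 of 8 tested were higher on average in the swimming group, with a median log2 fold change of 0.06, and 0 had an unadjusted p below 0.05. Of 4 other imprinted growth genes tested, such as Grb10, all 4 were higher, with a median of 0.04, and 0 had an unadjusted p below 0.05. Over all genes tested, 9832 of 19018 were higher. Rian, Cdkn1c, Grb10 and Peg3 had their highest value in swimming tumor 5, while some of these imprinted genes were highest in other tumors. Among 4 small abundant noncoding RNAs tested, 1 had an unadjusted p below 0.05 (all genes, 5.56%). Rpph1, the RNA of ribonuclease P, was higher in the swimming group by 0.37 on the log2 scale (unadjusted p = 0.0206, adjusted p = 0.889 in limma's test). Of the 5 carcinoma markers, Epcam (0 to 0.177 FPKM), Cdh1 (0.120 to 0.430 FPKM) and Krt19 (0 to 0.757 FPKM) stayed below 1 FPKM in all 12 tumors. Krt18 was 5.89 to 14.8 FPKM, and Krt8 ranged from 1.86 to 129 FPKM, the latter in control tumor 4. Of 3 T cell markers 2 had an unadjusted p below 0.05 (all genes, 5.56%), Cd3d with a log2 fold change of 0.48 and Cd8a with 0.61 (adjusted p = 0.889 each in limma's test). The summed T cell markers were 1.29 to 4.22 FPKM in control tumors and 2.72 to 7.45 FPKM in swimming tumors, with the highest value in swimming tumor 5. Summed markers of macrophages were 86.6 to 132 and 102 to 137 FPKM, those of endothelium 21.4 to 36.4 and 22.2 to 33.6 FPKM, and those of B cells 0.132 to 3.60 and 0.165 to 0.550 FPKM in the control and swimming groups. Their part in the levels of the 10 RNAs was not tested.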

How the data were processed

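RNA-Seq of 12 CT-26 tumors, 6 per group, was analysed. After rRNA depletion, the authors aligned reads with HISAT2 2.0.5, calculated gene values with StringTie 1.3.3 and deposited them as FPKM, 1 value per gene and tumor. The methods name the human genome hg38, the submitters' processing notes also list GRCm38, and the files hold mouse Ensembl identifiers. Names and coordinates are from GENCODE M21 on GRCm38 and were matched for 30542 of 30630 identifiers, and the other 88 have no symbol. How StringTie divided reads between overlapping genes is part of the values.

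FPKM values hold no read numbers, so absolute depth is unknown and counting errors are not given. The steps between low values put the depth of control tumor 2 at 0.693 of that of control tumor 1, and the others between 0.871 and 1. The sum of FPKM was 380139 to 407109 per tumor.

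Groups and replicate numbers are from the sample labels, which name no batch or date. The 19018 genes that reached 0.1 FPKM in 6 or more tumors were compared on log2(FPKM + 1), which understates changes of low genes, with limma 3.58.1 (lmFit and eBayes with trend, R 4.3.3) and Benjamini-Hochberg adjustment over all of them. The script was tested on simulated data. For single genes, exact permutation tests (two-sided, over every division into 6 and 6 tumors) were added, and 15 pairs were correlated with 100000 permutations each (scipy 1.17.1). Python 3.11.15, pandas 2.3.3 and matplotlib 3.10.9 were used. The RNAs, gene lists and pairs were chosen with earlier results of these data known. Genes named are the 10 RNAs, the first 3 of each list and its genes at an unadjusted p below 0.05, snoRNA genes inside the RNAs, and the 3 most alike genes of each RNA with a mean of at least 1 FPKM. Other genes named with values (Snhg9, Cdkn1c, Kcnq1, Krt18, Krt19) were chosen after their values were seen. Mir17hg was named because it is not a snoRNA host gene. Some genes of the lists are not reported here. Alternatives were pseudocounts of 0.1 and 0.01, no filter, a filter of 1 FPKM, quantile normalization, trimmed mean scaling, eBayes without trend, a block for the replicate number, and the omission of each tumor. Leaving out control tumor 1 and swimming tumor 5 together was added after the data were seen.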

Additional observations from a re-analysis of the deposited data

Results flagged for a closer look

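Among the 22 sets of 6 values examined with Dixon's test, 2 held a tumor far from the others, and chance gives about 1.1. Meg3 was 1.80 FPKM in swimming tumor 5, where the next highest swimming tumor had 0.643 FPKM. This tumor also had the second highest sum of fibroblast markers (757 FPKM) and the highest sum of muscle markers (271 FPKM), and their part in the value was not tested. Pvt1 was 1.77 FPKM in swimming tumor 1, where the next highest swimming tumor had 1.28 FPKM, and Gas5 was also highest of its group in that tumor (41.9 FPKM).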

How the results depend on the processing

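Of 208 recomputed fold changes of the 10 RNAs, 202 kept their direction and stayed on the same side of an unadjusted p of 0.05, although many moved in size by over 1.5 times. The log2 fold change of Meg3 was -0.14 to 0.15 without single tumors, below 0 without control tumor 3 (-0.0098), control tumor 5 (-0.015) and swimming tumor 5 (-0.14), and -0.046 without control tumor 1 and swimming tumor 5 together; the cause was not tested. Kcnq1ot1 and Meg3 were not tested under the filter of 1 FPKM, since neither reached it in 6 tumors. Norad had an unadjusted p of 0.0495 without control tumor 2 and 0.0342 without control tumor 3. Leaving out 1 tumor at a time therefore gave 0 to 1 of the 10 RNAs at an unadjusted p below 0.05. Over all genes it gave 820 to 1427 at that threshold and 0 to 3 at an adjusted p below 0.05, the 3 without control tumor 4 and 2 without swimming tumor 1. The difference between nuclear RNAs and host genes shifted by 0.09 to 0.24 without single tumors and by 0.13 to 0.22 under the other alternatives. The correlations recomputed with other pseudocounts and scalings, 59 in all, kept their direction and stayed on the same side of an adjusted permutation p of 0.05. Some moved in size. H19 with Igf2 had r = 0.36 with a pseudocount of 0.01 (adjusted permutation p = 0.294). Kcnq1ot1 with Cdkn1c had r = -0.59 with quantile normalization (adjusted permutation p = 0.0527). Sides of an unadjusted p were not compared for these 59. Without the 2 tumors farthest from the median, Malat1 with Kcnq1ot1 (permutation p = 0.0637), H19 with Meg3 (0.0929), H19 with the fibroblast sum (0.257) and H19 with Igf2 (0.428) had an unadjusted p above 0.05, and Malat1 with Neat1 one below it (0.0288). That of H19 with Igf2 was not recomputed with quantile normalization. Equal replicate numbers belong to different mice and did not pair the tumors: 0 of 6 pairs correlated above 0.1 (mean -0.12, beside 0.02 for different numbers). With the number as a replicate block, 892 genes had an unadjusted p below 0.05, 0 had an adjusted p below 0.05, and 0 of the 10 RNAs passed either threshold. Low values carry the largest error in control tumor 2, the shallowest library.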
